A study of Rattus norvegicus with 6 samples.

Results

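*Fgfr1*, *Fgfr2* and *Fgfr3* encode the receptors through which neural stem cells (NSCs) sense basic fibroblast growth factor (bFGF), and *Spry1*, *Spry2*, *Spry4*, *Spred1*, *Dusp6*, *Etv4* and *Etv5* are genes whose transcripts follow signaling through the kinase ERK. These 10 genes were taken by name from the 17315 rows of the expression tables, with 1 row each, and all 10 passed the filter on low values. The RNA came from adult rat hippocampal NSCs, a line that was isolated from rats and cloned. The cells had received either a duplex of control siRNA (siControl NSCs) or a single duplex against *Derl1* (siDerl1 NSCs), the gene for the endoplasmic reticulum protein Derlin-1. All samples then had 2 days of proliferation medium with bFGF (20 ng/mL) and 2 days of quiescence medium, in which bFGF was at 10 ng/mL and BMP4 at 50 ng/mL, so that both the growth factor and the quiescence signal were present in both groups. Each group held 3 samples, numbered 1 to 3. Expression was given as TPM, the share of all transcripts after correction for transcript length, scaled to the same total in every sample. This unit keeps no read numbers, so sequencing depth is unknown and counting error cannot be stated.

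Binding of bFGF to an FGF receptor recruits the adaptor FRS2 and switches on RAS, RAF, MEK and ERK in turn. ERK signaling induces its own inhibitors: Sprouty and SPRED proteins act on the step between receptor and RAF, and DUSP6 is a phosphatase that removes phosphate from ERK in the cytoplasm. ETV4 and ETV5 are ETS transcription factors that are switched on downstream of FGF receptors. In NSC cultures bFGF drives proliferation, and BMP4 given beside it takes the cells out of the cell cycle. The comparison of siDerl1 with siControl NSCs asks which transcripts differ when NSCs enter quiescence with less Derlin-1.

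Promoter windows from RefSeq (rat build GRCr8; the reads were mapped to rn6) were matched by symbol for 8 of the 10 genes, *Fgfr1* and *Etv4* being the others, which gave 9 windows because *Spry2* has a pair of start sites. Each window holds 250 bases before and 50 bases after the start. The 3 windows printed here, those of *Spry2* and *Spry4*, were the only windows of the 9 that held any of 4 motifs searched on both strands. *Spry2*, *Spry4*, *Dusp6* and *Etv5* were lower in siDerl1 than in siControl NSCs in every sample pair. The windows of *Dusp6* and *Etv5* held none of the motifs. Capitals mark CCGGAA, a core of ETS binding sites, and TTCNNNGAA, a form of the STAT site that reads the same on both strands. The sequences run 5′ to 3′ on the strand of the gene.
*Spry2* first window, chr15:89111877-89112176, minus strand: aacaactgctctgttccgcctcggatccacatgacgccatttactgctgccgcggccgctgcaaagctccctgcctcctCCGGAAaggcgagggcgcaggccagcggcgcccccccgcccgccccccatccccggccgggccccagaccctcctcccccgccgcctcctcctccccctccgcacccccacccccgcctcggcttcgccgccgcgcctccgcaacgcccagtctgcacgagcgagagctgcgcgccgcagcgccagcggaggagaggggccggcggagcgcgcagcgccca
*Spry2* second window, chr15:89109793-89110092, minus strand: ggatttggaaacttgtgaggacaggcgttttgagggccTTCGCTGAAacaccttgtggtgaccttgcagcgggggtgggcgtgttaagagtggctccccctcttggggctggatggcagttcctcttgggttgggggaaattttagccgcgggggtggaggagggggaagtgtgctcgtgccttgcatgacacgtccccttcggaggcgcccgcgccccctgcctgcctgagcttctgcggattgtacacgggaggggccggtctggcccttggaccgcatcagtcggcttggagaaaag
*Spry4*, chr18:30702497-30702796, minus strand: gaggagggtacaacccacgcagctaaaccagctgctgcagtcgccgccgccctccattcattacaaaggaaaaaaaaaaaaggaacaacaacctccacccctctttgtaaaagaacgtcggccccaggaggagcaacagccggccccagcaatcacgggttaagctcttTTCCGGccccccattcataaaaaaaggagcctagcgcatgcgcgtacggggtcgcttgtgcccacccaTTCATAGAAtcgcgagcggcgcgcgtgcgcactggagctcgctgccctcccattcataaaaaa
In *Spry4* the CCGGAA match lies on the other strand and begins 81 bases before the start. Of all 33469 promoter windows of this length, 15.0% held CCGGAA and 8.87% held TTCNNNGAA. The AP-1 site TGACTCA, present in 4.63% of all windows, and the CRE TGACGTCA, present in 1.83%, matched no window of the 8 genes. These matches describe letters only.

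*Derl1*, the targeted gene, was at 127 ± 5.19 TPM (SD, n = 3) in siControl and at 63.2 ± 16.0 TPM in siDerl1 NSCs. It was at 122, 132 and 128 TPM in siControl samples 1, 2 and 3. In siDerl1 samples 1, 2 and 3 it was at 44.9, 70.8 and 74.0 TPM, so the knockdown was strongest in sample 1. Markers of NSCs were present, with 8 of 8 listed genes at 1 TPM or more in every sample. Of 5 oligodendrocyte lineage markers 4 were at 1 TPM or more in every sample, with a summed level of 1063 to 1503 TPM, whereas *Cspg4* was under 1 TPM. Of 5 astrocyte markers 3 were at 1 TPM or more in every sample, with *Aqp4* and *Aldh1l1* under 1 TPM and a summed level of 490 to 779 TPM, and of 5 neuron markers also 3, with a summed level of 116 to 140 TPM. Of 5 microglia markers 1 reached 1 TPM in every sample, and of the 5 endothelial and the 5 fibroblast and mural markers 0 did, with summed levels of at most 5.46, 0.73 and 3.49 TPM. The fibroblast and mural sum was 1.22 to 1.91 TPM in siControl and 3.04 to 3.49 TPM in siDerl1 NSCs, without overlap, with *Col1a2*, *Dcn* and *Lum* under 1 TPM in every sample, and its part in the comparisons of the groups was not tested. Samples that share a number also resembled each other: across all tested genes, which are not independent replicates, their deviations from the group means had correlations of 0.70 (number 1), 0.35 (number 2) and 0.51 (number 3). Samples numbered 2 and 3 were also alike across groups, with correlations of 0.34 (siControl sample 2 with siDerl1 sample 3) and 0.25 (siControl sample 3 with siDerl1 sample 2), while every correlation between a sample numbered 1 and one of another number was between −0.59 and −0.41. The groups were therefore compared both with limma alone and with the sample number as a replicate block, that is, within number. The number is taken from the sample titles, and neither the labels nor the methods say whether it marks a culture, a day or a batch.

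Among the FGF receptor genes *Fgfr3* was the most abundant, with 141, 388 and 478 TPM in siControl samples 1, 2 and 3. In siDerl1 samples 1, 2 and 3 it was at 144, 376 and 480 TPM. The level of *Fgfr3* thus followed the sample number, while samples of the same number were nearly equal. The log2 fold change of siDerl1 against siControl NSCs was 0.00, with a 95% confidence interval of −1.33 to 1.32 from limma. With the replicate block the interval narrowed to between −0.11 and 0.10 (adjusted p = 0.983 from limma).

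*Fgfr2*, whose row pools 6 RefSeq transcripts, was at 135, 137 and 133 TPM in siControl samples 1, 2 and 3. It was at 141, 125 and 114 TPM in siDerl1 samples 1, 2 and 3. Sample 1 of the siDerl1 group lay above the whole siControl group and the other siDerl1 samples lay below it, so the groups overlapped. *Fgfr2* had a log2 fold change of −0.10 (standard error 0.08, adjusted p = 0.860 from limma, 0.489 with the block). *Fgfr1* was at 81.4, 98.7 and 100 TPM in siControl samples 1, 2 and 3. It was at 91.3, 83.8 and 83.1 TPM in siDerl1 samples 1, 2 and 3. Here too pair 1 differed in the direction opposite to pairs 2 and 3, with log2 differences of 0.16, −0.23 and −0.27. The log2 fold change of *Fgfr1* was −0.11 (standard error 0.10, adjusted p = 0.873 from limma, 0.576 with the block).

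Because TPM is corrected for length, the receptors can be compared with each other. In both samples numbered 1, *Fgfr2* and *Fgfr3* were close, with an *Fgfr3* to *Fgfr2* ratio of 1.04 in siControl and 1.02 in siDerl1 NSCs. The ratio was 2.83 and 3.58 in siControl samples 2 and 3, and 3.02 and 4.22 in siDerl1 samples 2 and 3. *Fgfr3* therefore supplied 39.4% of the summed TPM of the 3 receptors in siControl sample 1 and 38.3% in siDerl1 sample 1. Its share in the other 4 samples lay between 62.2% and 70.9%. *Fgfr1* ranked below *Fgfr2* in all 6 samples.

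**Figure D1:**
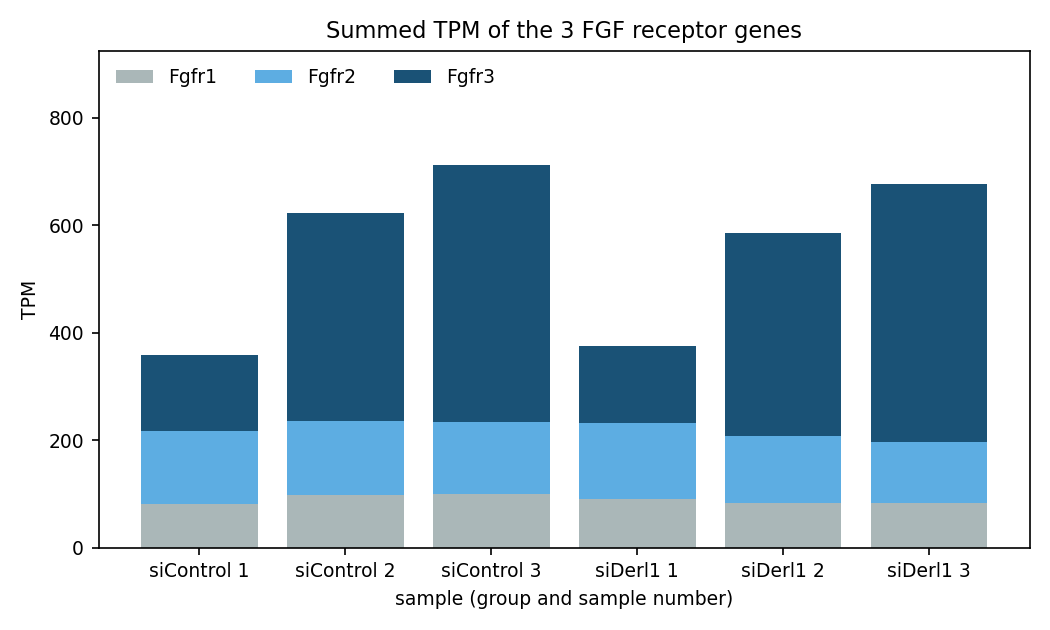
Stacked bars of TPM for *Fgfr1*, *Fgfr2* and *Fgfr3* in each of the 6 samples, named by group and sample number. The summed level is 358 and 376 TPM in the samples numbered 1 and 585 to 711 TPM in the other 4, a difference that lies in *Fgfr3*.

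*Dusp6*, the ERK phosphatase gene, had the smallest p of the 10 genes. It was at 39.1, 49.7 and 49.1 TPM in siControl samples 1, 2 and 3. In siDerl1 samples 1, 2 and 3 it was at 29.0, 36.3 and 40.6 TPM. Each siDerl1 sample was below the siControl sample of its number, by log2 differences of −0.42, −0.44 and −0.27, but siDerl1 sample 3 was above siControl sample 1, so the groups overlapped. The group means were 45.9 ± 5.95 and 35.3 ± 5.84 TPM (SD, n = 3 each), 23.2% lower in siDerl1 NSCs. On the log2 scale the change was −0.38 (standard error 0.15, 95% confidence interval −0.72 to −0.03), and limma gave an unadjusted p of 0.0376 and an adjusted p of 0.713. The block reduced the standard error to 0.08 and the adjusted p to 0.0817. The exact two-sided permutation p over the group labels was 0.2, where the smallest that 3 against 3 samples allow is 0.1.

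The study tested genes with edgeR, which could not be rerun here on TPM, so its calls and those below are not like for like. Its methods call a fold change above 1.5 or below 0.8. These limits were applied here to the ratio of mean TPM together with an unadjusted p under 0.05 from limma. *Dusp6* passed them, as 1 of the 10 genes. Among all 10331 genes tested, 1.49% passed as lower and 0.716% as higher. The call was lost in 5 of 16 other settings, namely when the fit had no intensity trend and when it left out siControl sample 2, siControl sample 3, siDerl1 sample 1 or siDerl1 sample 2. The log2 fold change of *Dusp6* was −0.25 without siDerl1 sample 1 and lay between that value and −0.49 with any 1 sample left out. None of the 10 genes had an adjusted p under 0.05 from limma in this fit, and neither did any other gene (0% of those tested, the smallest for the 10 genes being 0.713). At an unadjusted p under 0.05 *Dusp6* was the only one, against 4.03% of all genes called lower and 2.67% called higher.

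*Spry4* encodes a Sprouty protein, an inhibitor of the path from receptor to ERK. It was at 10.2, 27.4 and 27.7 TPM in siControl samples 1, 2 and 3. It was at 8.36, 18.8 and 24.3 TPM in siDerl1 samples 1, 2 and 3. The samples numbered 1 were the lowest in both groups, and within each number the siDerl1 sample was lower, by log2 differences of −0.25, −0.52 and −0.18. *Spry4* had a log2 fold change of −0.32 (standard error 0.47, adjusted p = 0.937 from limma). With the block the standard error was 0.11, the unadjusted p 0.0199 and the adjusted p 0.225, and *Spry4* joined *Dusp6* past the same limits.

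*Spry2* was at 48.3, 65.5 and 71.2 TPM in siControl samples 1, 2 and 3. In siDerl1 samples 1, 2 and 3 it was at 47.7, 59.5 and 62.1 TPM. Pair 1 was nearly equal, with a log2 difference of −0.02, and pairs 2 and 3 differed by −0.14 and −0.19. This second Sprouty gene had a log2 fold change of −0.12 (standard error 0.16, adjusted p = 0.934 from limma, 0.463 with the block). *Spry1* did not share the order of its relatives. It was at 62.2, 56.6 and 44.7 TPM in siControl samples 1, 2 and 3, where sample 1 was the highest. It was at 41.7, 48.9 and 46.8 TPM in siDerl1 samples 1, 2 and 3, where sample 1 was the lowest. The log2 differences of *Spry1* were −0.57, −0.21 and 0.07 in pairs 1, 2 and 3, with a log2 fold change of −0.24 (standard error 0.13, adjusted p = 0.769 from limma, 0.344 with the block).

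*Spred1*, a membrane-bound inhibitor related to the Sprouty genes, varied little. It was at 55.5, 48.6 and 51.1 TPM in siControl samples 1, 2 and 3. It was at 58.4, 46.6 and 50.7 TPM in siDerl1 samples 1, 2 and 3. Its log2 fold change was 0.00 with a 95% confidence interval of −0.24 to 0.24 from limma, and of −0.16 to 0.16 with the block.

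The gene for the ETS factor ETV5 was at 61.5, 87.9 and 90.8 TPM in siControl samples 1, 2 and 3. *Etv5* was at 56.2, 68.6 and 80.2 TPM in siDerl1 samples 1, 2 and 3. All 3 pairs differed downwards, by log2 values of −0.13, −0.35 and −0.18. *Etv5* had a log2 fold change of −0.22 (standard error 0.18, adjusted p = 0.866 from limma). With the block its standard error was 0.07, its unadjusted p 0.0114 and its adjusted p 0.190. *Etv4* was at 11.2, 36.3 and 37.1 TPM in siControl samples 1, 2 and 3. It was at 16.3, 32.9 and 34.2 TPM in siDerl1 samples 1, 2 and 3. Pair 1 of *Etv4* differed upwards, by 0.51 on the log2 scale, and pairs 2 and 3 downwards, by log2 differences of −0.14 and −0.12. The log2 fold change of 0.08 (standard error 0.48, adjusted p = 0.983 from limma, 0.808 with the block) turned to −0.46 without siControl sample 1 and to −0.13 without both samples numbered 1.

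**Figure D2:**
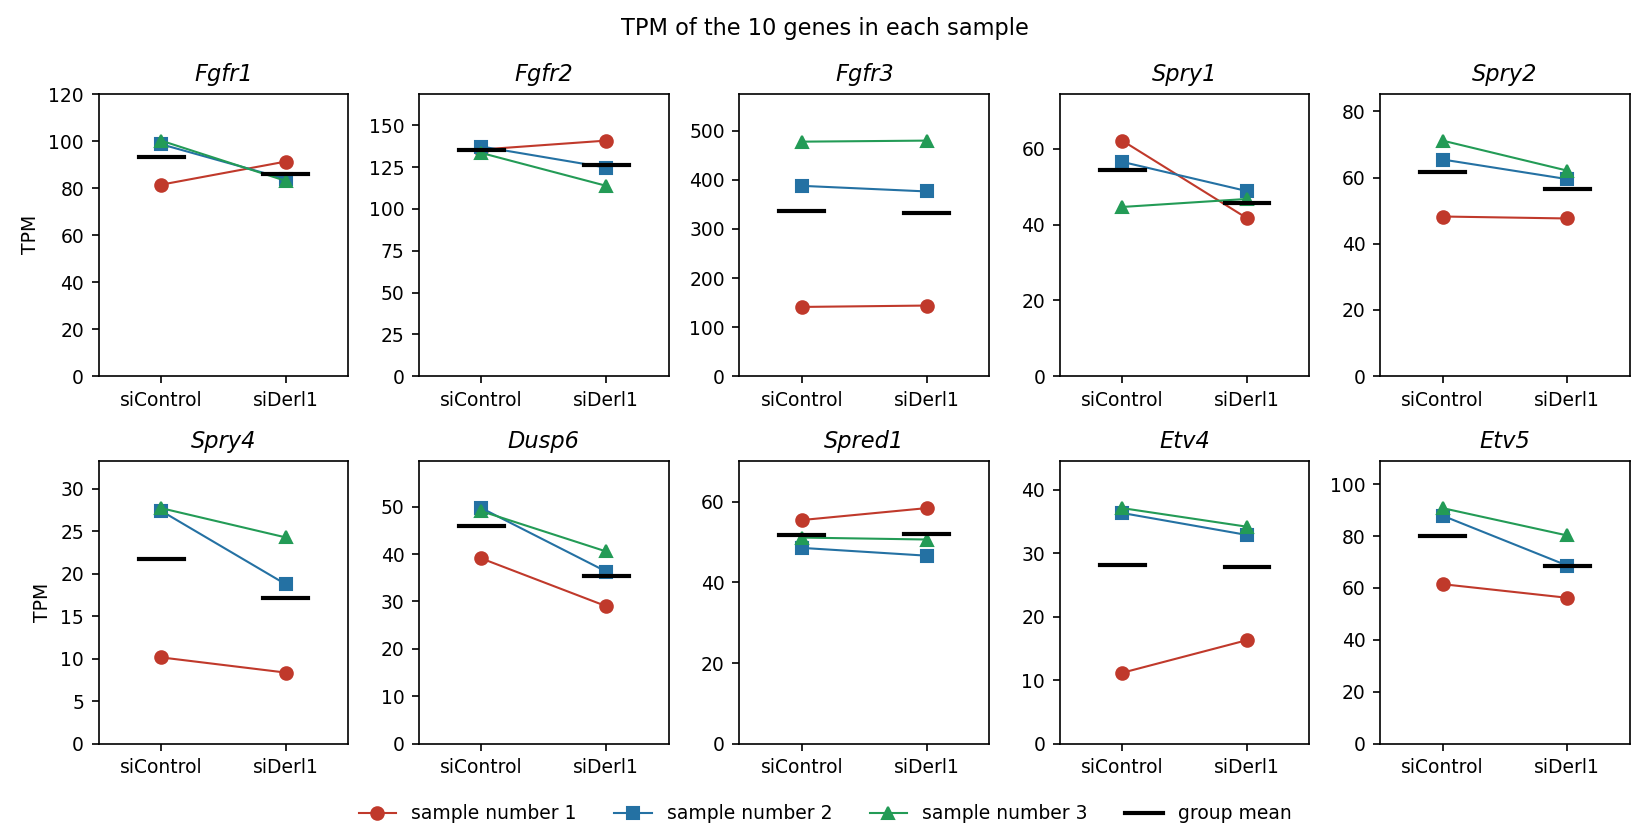
TPM of each of the 10 genes in the siControl and siDerl1 samples, with a line joining samples of the same number and a black bar at each group mean; every vertical axis starts at 0. *Dusp6*, *Spry4*, *Spry2* and *Etv5* slope down from left to right on all 3 lines. The samples numbered 1 lie below the rest in *Fgfr3*, *Spry4*, *Etv4*, *Etv5* and *Spry2*.

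Of the 10 genes, 4 were lower in siDerl1 NSCs in all 3 pairs (*Dusp6*, *Spry4*, *Spry2* and *Etv5*) and 0 were higher in all 3. Among all genes tested 22.1% were lower and 15.8% were higher in all 3 pairs. In pair 2 all 10 genes were lower, against 55.8% of the genes tested. In pair 3 there were 8, against 57.3%, and in pair 1 there were 5, against 47.9%. *Derl1* itself fell most in pair 1, by log2 differences of −1.42, −0.89 and −0.78 in pairs 1, 2 and 3. Whether the differences of these genes follow the degree of knockdown was not tested. In 0 of the 10 genes were the groups free of overlap, where 8.52% of all genes did not overlap with siDerl1 lower and 5.09% with siDerl1 higher. The median log2 fold change of the 10 genes was −0.11, and that of all genes tested was −0.02.

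With the replicate block 3 of the 10 genes had an unadjusted p under 0.05, all lower (*Dusp6*, *Etv5* and *Spry4*), where 8.88% of all genes were called lower and 6.84% higher. Past the fold and p limits were 2 of the 10, both lower, against 2.57% of all genes called lower and 1.66% called higher with the block. After adjustment over all genes there were 0 of the 10, against 0.552% of all genes. In the same fit on the samples numbered 2 and 3 alone, a setting chosen after the data had been seen, *Dusp6* (adjusted p = 0.0249), *Etv5* (0.0469) and *Fgfr1* (0.0479) had an adjusted p under 0.05 from limma, 3 of the 10 against 4.89% of all genes. That fit has 2 samples in each group and 1 residual degree of freedom per gene, and without the block the same 4 samples gave 0 of the 10.

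**Figure D3:**
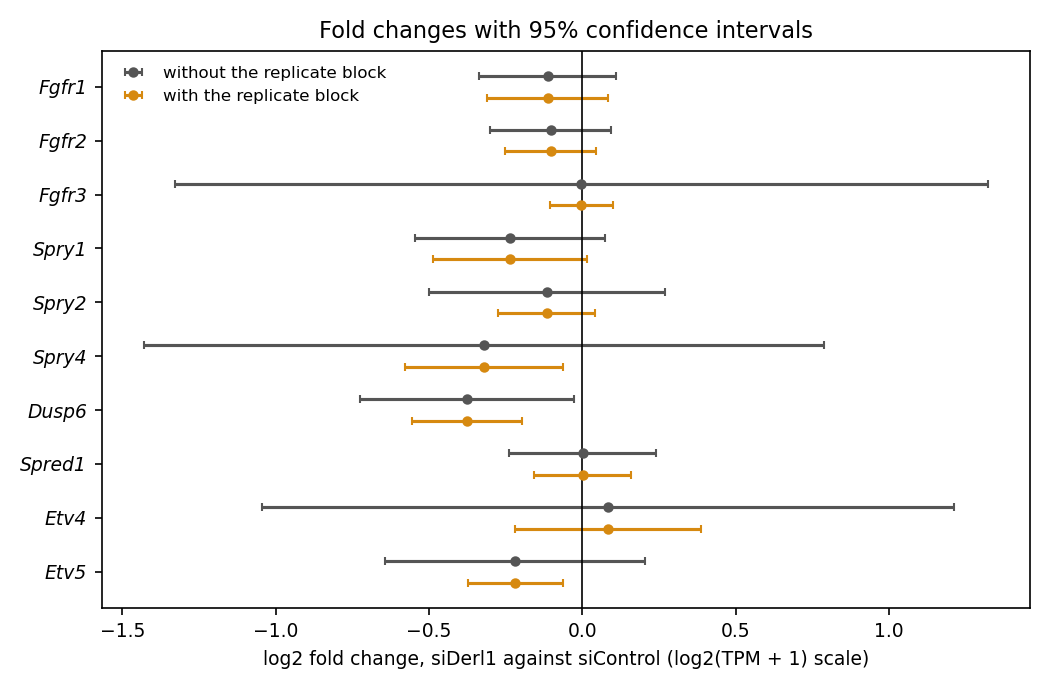
Log2 fold change of siDerl1 against siControl NSCs for each gene, on the log2(TPM + 1) scale, with bars for the 95% confidence interval from limma without (grey) and with (orange) the replicate block. Only the interval of *Dusp6* lies wholly below 0 without the block, and those of *Dusp6*, *Spry4* and *Etv5* do with it.

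Several of the 10 genes differed between sample numbers. A moderated F test of the 3 sample numbers, with the group as a term, gave an adjusted p under 0.05 for *Fgfr3* (5.28e-07), *Spry4* (5.52e-04), *Etv4* (0.00143), *Etv5* (0.00880) and *Spry2* (0.0165), from limma. These are 5 of the 10 genes, against 10.6% of all genes. *Dusp6* had an adjusted p of 0.0540 and *Spred1* of 0.187, while those of *Fgfr2*, *Spry1* and *Fgfr1* were 0.407, 0.584 and 0.833. The count was 2 of 10 when no intensity trend was fitted. The test compares pairs of samples that share a number, and what the number stands for is not given in the sources used here.

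Both samples numbered 1 lay below the other 4 in 5 of the 10 genes, the same 5, and in 17.0% of all genes tested. The reverse, both samples numbered 1 above the rest, was seen for *Spred1* alone, against 15.7% of all genes. *Fgfr3* was 3.07-fold higher in the mean of siControl samples 2 and 3 than in siControl sample 1, and 2.98-fold higher in the same comparison of siDerl1 samples. For *Spry4* these ratios were 2.71 and 2.57. *Etv4* had ratios of 3.29 in siControl and 2.06 in siDerl1 NSCs, and *Etv5* of 1.45 and 1.32. The summed level of the oligodendrocyte lineage markers moved the other way, from 1334 to 1503 TPM in the samples numbered 1 and from 1063 to 1242 TPM in the other 4, as did the astrocyte markers, at 730 to 779 TPM against 490 to 521 TPM. The summed NSC markers were at 4025 to 4448 TPM in the samples numbered 1 and at 5590 to 5938 TPM in the other 4. Their part in these differences was not tested, and in bulk RNA fewer cells of a type and less RNA per cell cannot be told apart.

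**Figure D4:**
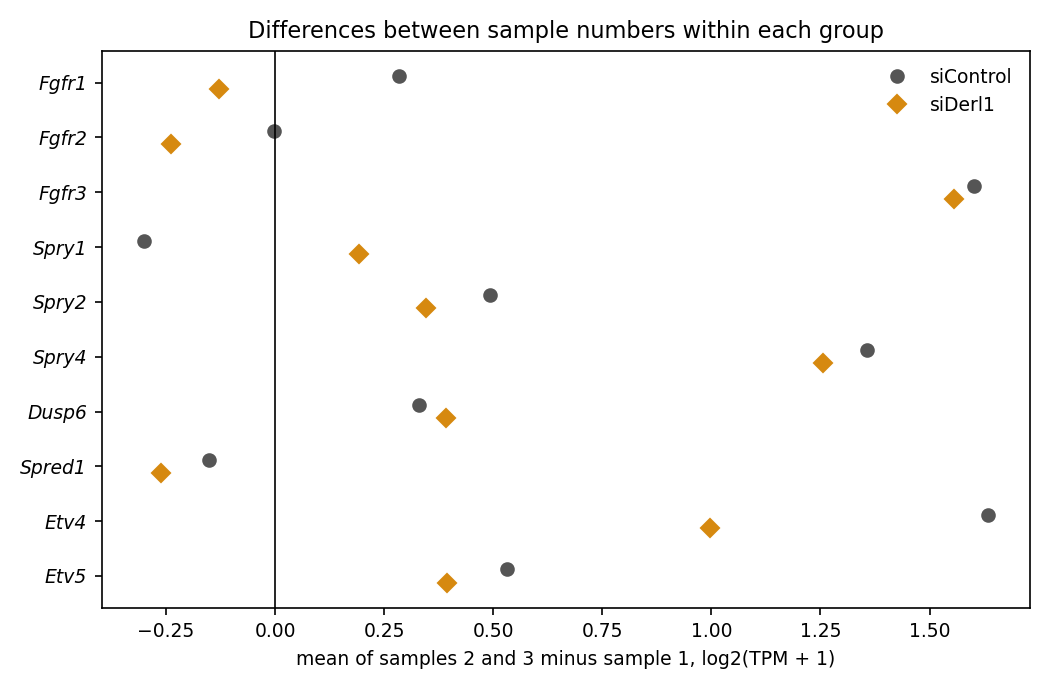
For each gene, the mean log2(TPM + 1) of samples 2 and 3 minus that of sample 1, within siControl (grey circles) and siDerl1 (orange diamonds) NSCs. *Fgfr3*, *Spry4* and *Etv4* lie near 1 or above in both groups, *Spry2*, *Dusp6* and *Etv5* between 0.33 and 0.53, and *Fgfr1* and *Spry1* on different sides of 0.

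By mean TPM over the 6 samples the order was *Fgfr3* (335), *Fgfr2* (131), *Fgfr1* (89.7), *Etv5* (74.2), *Spry2* (59.0), *Spred1* (51.8), *Spry1* (50.1), *Dusp6* (40.6), *Etv4* (28.0) and *Spry4* (19.4). The ranges of *Fgfr3* and *Fgfr2* did not overlap, narrowly, nor did those of *Fgfr2* and *Fgfr1*. From *Fgfr1* down, every gene overlapped in range over the 6 samples with the next in this order. Within samples, however, *Fgfr1* was above *Etv5*, *Etv5* above *Spry2*, *Dusp6* above *Etv4* and *Etv4* above *Spry4* in all 6. The order of the neighbours between them varied from sample to sample, with *Spry2* above *Spred1* in 4 of 6, *Spred1* above *Spry1* in 3 of 6 and *Spry1* above *Dusp6* in 5 of 6. For genes farther apart the ranges could separate: the lowest *Etv5* value, 56.2 TPM, was above the highest of *Dusp6* (49.7 TPM), *Etv4* (37.1 TPM) and *Spry4* (27.7 TPM). The genes with the largest spread were *Fgfr3* and *Spry4*, with standard deviations of 0.83 and 0.71 on the log2(TPM + 1) scale. The profiles most like that of *Fgfr3* over the 6 samples were those of *Ramp2*, *Samd11* and *Cux2*, with root mean square differences of 0.03, 0.08 and 0.09 on that scale after centring. Those most like *Spry4* were *P2rx1*, *Mgat4a* and *Ncan*, at 0.08, 0.10 and 0.11. *P2rx1* was at only 0 to 2.04 TPM, where the pseudocount of 1 compresses its differences, so its likeness to *Spry4* depends on that scale.

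The wider pathway was read from lists of other genes. Upstream, *Fgfr4* was at 0.52 to 0.74 TPM in siControl and 0.91 to 1.23 TPM in siDerl1 NSCs, without overlap. Its mean over all samples, 0.858 TPM, was under the filter, so it was not tested. Of the genes tested 5.09% did not overlap with siDerl1 higher. *Fgfrl1*, which encodes a receptor without a kinase domain, was at 79.6 ± 14.6 TPM in siControl and 84.0 ± 17.0 TPM in siDerl1 NSCs (SD, n = 3 each). Besides *Fgfr1*, *Fgfr2* and *Fgfr3*, 7 receptor and coreceptor genes were tested, *Fgfrl1* among them, of which 3 were higher and 4 lower, none with an unadjusted p under 0.05. The smallest p values in this list were those of the syndecans *Sdc4*, with a log2 fold change of 0.26 (standard error 0.29, adjusted p = 0.910 from limma), and *Sdc3*, with −0.17 (0.27, adjusted p = 0.944). With the block *Sdc3* was the 1 gene of this list with an unadjusted p under 0.05 (0.0148, adjusted p = 0.207 from limma), and it was lower in each pair. Over all genes tested the block gave 8.88% lower and 6.84% higher at that threshold, which is also the background for the ligands. Of 22 FGF ligand genes, 9 were listed at 0 TPM in every sample and 4 were tested. *Fgf11* (25.0 ± 3.91 TPM in siControl and 20.1 ± 7.73 TPM in siDerl1 NSCs) and *Fgf12* (13.2 ± 5.77 and 10.4 ± 5.12 TPM), members of the family that stay inside the cell, were the most abundant. *Fgf2*, the gene for bFGF itself, was at 3.49 to 6.26 TPM in siControl and 2.34 to 7.05 TPM in siDerl1 NSCs. *Fgf22* had the smallest p of the ligands, being listed at 0 TPM in siControl sample 1 and at 1.70 and 0.69 TPM in samples 2 and 3. It was at 1.51, 1.77 and 3.61 TPM in siDerl1 samples 1, 2 and 3, with an adjusted p of 0.750 from limma. The mean of *Fgf22* was 0.797 TPM in siControl and 2.30 TPM in siDerl1 NSCs. It thus passed the filter of 1 TPM only through siDerl1 NSCs, and its call as higher cannot be told apart from the filter. With the block *Fgf22* passed the fold and p limits as higher (unadjusted p = 0.0154, adjusted p = 0.208 from limma). *Fgf12* passed them as lower with the block (unadjusted p = 0.0281, adjusted p = 0.256). Among all genes tested 1.66% passed these limits as higher and 2.57% as lower with the block. *Fgf11* had the next smallest p, with a log2 fold change of −0.36 (standard error 0.26, adjusted p = 0.833 from limma). With the block its unadjusted p was 0.0221 and its adjusted p 0.232, and it did not pass the fold limit.

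Between receptor and ERK, 21 adaptor and kinase genes were tested, of which 9 were higher and 12 lower in siDerl1 NSCs, with a median log2 fold change of −0.03. *Shc1*, an adaptor gene, was at 82.3, 86.2 and 78.2 TPM in siControl samples 1, 2 and 3. It was at 98.5, 105 and 96.5 TPM in siDerl1 samples 1, 2 and 3, all above the siControl range, with a log2 fold change of 0.28 (standard error 0.07, adjusted p = 0.704 from limma, 0.0809 with the block). *Nras*, a RAS gene, was at 141, 152 and 156 TPM in siControl samples 1, 2 and 3. It was at 130, 131 and 128 TPM in siDerl1 samples 1, 2 and 3, all below the siControl range, with a log2 fold change of −0.21 (standard error 0.06, adjusted p = 0.704 from limma, 0.144 with the block). Of the 21, 4 did not overlap with siDerl1 lower (*Nras*, *Rasa1*, *Grb2* and *Nf1*), against 8.52% of all genes. With siDerl1 higher 1 did not overlap (*Shc1*), against 5.09%. At an unadjusted p under 0.05, 1 of the 21 was higher (*Shc1*) and 2 were lower (*Nras* and *Rasa1*), where 2.67% of all genes were higher and 4.03% lower. With the block 1 was higher and 4 were lower, as *Frs2* (unadjusted p = 0.0339, adjusted p = 0.279 from limma) and *Araf* (0.0462, adjusted p = 0.307) joined, where 6.84% of all genes were higher and 8.88% lower.

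Downstream, 15 other feedback genes were tested, of which 8 were higher and 7 lower, with a median log2 fold change of 0.04 and none with an unadjusted p under 0.05. The smallest p values were those of *Rasa2*, with a log2 fold change of −0.29 (standard error 0.16, adjusted p = 0.769 from limma), and *Dusp4*, with −0.18 (0.14, adjusted p = 0.845). With the block 1 of the 15 was higher and 1 lower at an unadjusted p under 0.05, against the same 6.84% and 8.88%. *Flrt3* was at 11.8, 6.69 and 4.82 TPM in siControl and 22.0, 9.49 and 5.43 TPM in siDerl1 samples 1, 2 and 3. With the block *Flrt3*, higher in each pair, passed the fold and p limits (unadjusted p = 0.0167, adjusted p = 0.210 from limma). Among all genes tested 1.66% passed these limits as higher with the block. *Spred2* was lower (unadjusted p = 0.0128, adjusted p = 0.197) and did not pass the fold limit. Both samples numbered 1 lay below the other 4 in 5 of these 15 genes, *Spred2*, *Dusp7*, *Dusp8*, *Dusp1* and *Errfi1*. Both lay above the other 4 in 3, *Dusp10*, *Flrt3* and *Il17rd*, where 17.0% of all genes tested were below and 15.7% above. Of 10 other ERK output genes 4 were higher and 6 lower. The urokinase receptor gene *Plaur*, at 3.19 ± 0.681 and 1.89 ± 0.378 TPM, had the smallest p, with a log2 fold change of −0.53 (standard error 0.21, unadjusted p = 0.0419, adjusted p = 0.732 from limma). Its groups did not overlap, and it passed the fold and p limits as lower with and without the block. Among all genes tested 1.49% passed these limits as lower without the block and 2.57% with it. *Egr2* was the 1 gene of this list without overlap as higher, at 1.33 to 1.45 TPM in siControl and 1.53 to 1.94 TPM in siDerl1 NSCs. Of all genes 8.52% did not overlap with siDerl1 lower and 5.09% with siDerl1 higher. The cyclin D1 gene *Ccnd1* had the next smallest p of this list, at 229, 263 and 290 TPM in siControl samples 1, 2 and 3. It was at 203, 214 and 264 TPM in siDerl1 samples 1, 2 and 3, lower in each pair, with a log2 fold change of −0.20 (standard error 0.12, adjusted p = 0.790 from limma, 0.130 with the block). *Plaur* alone had an unadjusted p under 0.05 in this list without the block, and *Plaur* and *Ccnd1* (0.00371) had one with it, all lower, where 4.03% of all genes were lower without the block and 8.88% with it. In the output list both samples numbered 1 lay below the other 4 in 2 genes and above in 3. *Myc*, a growth-promoting transcription factor gene, was among the latter, at 264, 153 and 106 TPM in siControl and 295, 158 and 99.9 TPM in siDerl1 samples 1, 2 and 3 (adjusted p = 1.4e-05 between sample numbers, from limma). *Phlda1* was another, at 289, 182 and 173 TPM in siControl and 303, 187 and 169 TPM in siDerl1 samples 1, 2 and 3 (adjusted p = 1.1e-04). Both samples numbered 1 were below and above the rest in 3 and 1 of the 7 receptor and coreceptor genes, in 0 and 2 of the 4 ligand genes (*Fgf2* and *Fgf12*) and in 3 and 3 of the 21 adaptor and kinase genes. No gene of these lists had an adjusted p under 0.05 between the siRNA groups, with or without the block.

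**Figure D5:**
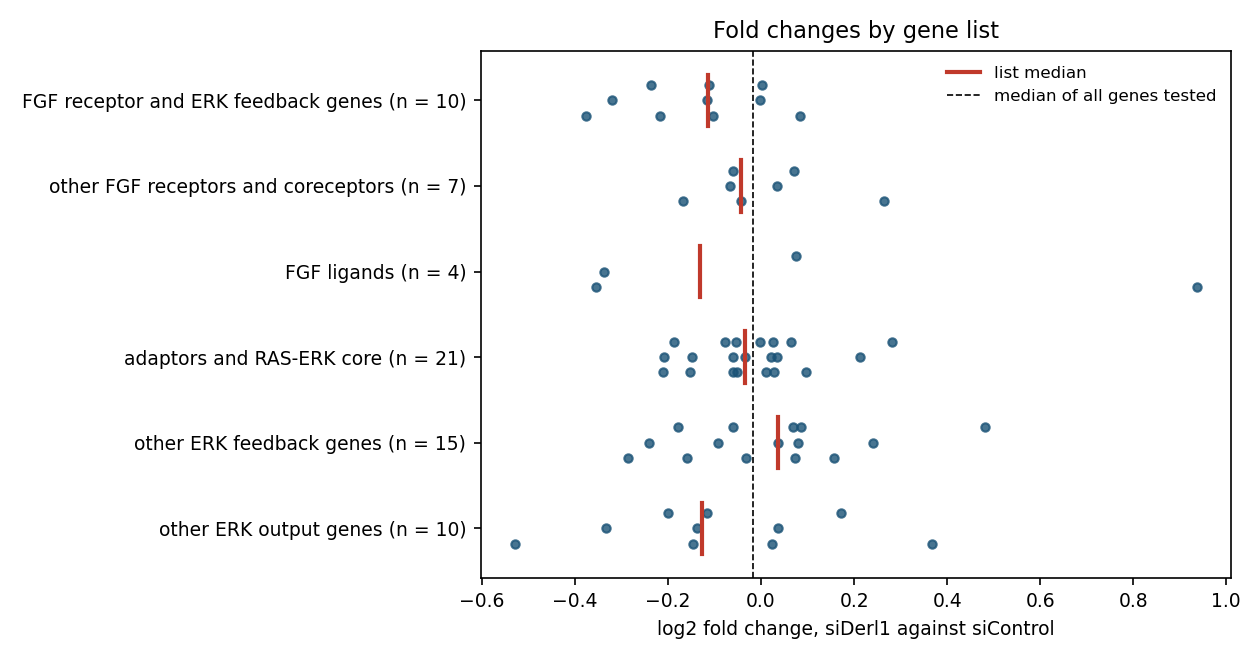
Log2 fold change of siDerl1 against siControl NSCs for each tested gene (points) of the 10 genes and of 5 lists of other pathway genes, with the median of each list (red bar) and of all genes tested (dashed line at −0.02). The list medians lie between −0.13 and 0.04, and each list has points on both sides of the dashed line.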

How the data were processed

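Directional libraries of poly(A) RNA were sequenced. Per the labels and the methods, the authors trimmed the reads with Trimmomatic (version 0.39), used STAR (2.7.3a) to map them to rn6 and estimated expression with RSEM (1.3.2). The values the authors deposited are TPM per gene, rounded to 2 decimals, in 1 table per sample. Depth cannot be recovered from TPM, which limits what can be said of precision.

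Samples were grouped by their titles. Values were set to log2(TPM + 1), genes were kept if their mean TPM reached 1 (10331 of 17315 rows), and limma (3.58.1, R 4.3.3; lmFit, eBayes with an intensity trend) compared the groups with Benjamini-Hochberg adjustment over all genes tested. With the pseudocount, changes of low genes come out too small. The sample number was added as a replicate block, because same-numbered samples deviated together (each correlation over 0.1) and the titles number them alike. Samples 2 and 3 also passed that limit across numbers (0.34 and 0.25), so it cannot decide their pairing. An F test compared the numbers. The exact permutation test was two-sided over 20 assignments. The scripts were tested on simulated data.

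Alternatives were a pseudocount of 0.1, no filter, a minimum mean TPM of 5, median-of-ratios scaling (factors 0.990 to 1.02), no trend, and each sample left out. The genes named are the 10 genes, *Derl1*, the 2 smallest p values of each list, the most abundant FGF ligands with *Fgf2*, and the 3 profiles most like the most variable of the 10. *Fgfr4*, *Fgfrl1*, *Flrt3*, *Frs2*, *Araf*, *Rasa1*, *Grb2*, *Nf1*, *Egr2*, *Myc*, *Phlda1*, the marker genes and the feedback genes low or high in samples 1 were named after their values were seen. The genes and lists were chosen with earlier results of these data known. *Klb* and *Braf* were not analysed here, and some values of listed genes are not reported here. Nothing says that the samples came from separate cultures, so p values measure the spread between these samples only. Reads shared by paralogs may be split between them by RSEM.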

Additional observations from a re-analysis of the deposited data

How the results depend on the processing

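The number of the 10 genes past the fold and p limits, 1 as reported, was 0 without an intensity trend, 2 with the replicate block, 2 with the block and no filter, 2 with the block and no trend, and 2 without both samples numbered 1, with or without the block. Leaving out 1 sample gave 0 to 2, with *Dusp6* and *Etv5* past the limits without siControl sample 1, and *Spry1* in place of *Dusp6* without siControl sample 3. The number with an adjusted p under 0.05 was 0 in every setting but the block on samples 2 and 3 alone, where it was 3. The number differing between sample numbers was 2 without a trend, 6 at a mean TPM of at least 5, and 4 to 5 with 1 sample left out. *Derl1* had a log2 fold change of −1.03 with an adjusted p of 0.497 from limma. The block left it at −1.03 with an adjusted p of 0.00884, which was 0.104 with the block and no filter and 0.230 with the block and no trend, and without both samples numbered 1 it was −0.83 (0.00545, and 1.81e-09 with the block). Leaving out both samples numbered 1 was a choice made after seeing the data.

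Of the 160 fold changes of the 10 genes recomputed over the 16 settings, 15 changed sign. *Fgfr3* went to 0.013 with median-of-ratios scaling and ranged from −0.54 to 0.52 with 1 sample left out. *Etv4* ranged from −0.46 to 0.42, *Spred1* from −0.086 to 0.074 and *Spry4* from −0.77 to 0.10 in those fits, and without both samples numbered 1 *Etv4* was at −0.13 and *Spred1* at −0.035, with or without the block. The other genes kept their direction with 1 sample left out, with ranges of −0.49 to −0.25 for *Dusp6*, −0.40 to −0.087 for *Etv5*, −0.28 to −0.00040 for *Spry2*, −0.37 to −0.14 for *Spry1*, −0.21 to −0.059 for *Fgfr1* and −0.18 to −0.031 for *Fgfr2*. The cause of these changes was not tested. Apart from the added fit on samples 2 and 3, the replicate block moved no adjusted p of the 10 genes past 0.05. All genes past the limits numbered 30 higher at a mean TPM of at least 5 and 158 higher with no filter, against 74, and 262 lower without siControl sample 1, against 154. Without siDerl1 sample 1 there were 118 higher. The block gave 171 higher and 266 lower, with no filter 272 and 331, and with no trend 177 and 305. Without both samples numbered 1 there were 161 higher and 289 lower, and 204 and 387 with the block. Genes with an adjusted p under 0.05 from limma numbered 0 without the block, 57 with it, 2 with the block and no filter, 0 with the block and no trend, and, on samples 2 and 3 alone, 35 without and 506 with the block. The unknown depth means that the precision of low values such as those of *Fgf22* and *Plaur* cannot be stated.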
